A study of Mus musculus with 9 samples.

Results

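Cdx2, Elf5, Hand1, Tfap2c, Gata2, Gata3, Ets2 and Plac1 are genes through which the trophoblast lineage, the outer cells of the early embryo that build the placenta, is set up and maintained. All 8 had 1 row each with a single gene symbol on the array, among 19938 genes so named. They were chosen by name, but with earlier results of these data known. They were followed in 3 kinds of mouse cells, all labelled C57BL/6, with 3 samples and 3 arrays per kind: fibroblasts from the adult heart, such fibroblasts after a dedifferentiation that the series title calls protein-based, and embryonic stem (ES) cells. Each sample's RNA was hybridised to its own Affymetrix whole-transcript array, and each gene has a log2 expression value per array. The labels name no passage, culture time, animal or protein, so the p-values rest on a spread between samples that could be technical alone.

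Trophoblast arises when the outer cells of the morula keep the co-activator Yap1 in the nucleus, where with Tead4 it turns on Cdx2 and Gata3. Cdx2, Eomes and Elf5 then hold trophoblast stem cells in place, whereas ES cells, made from the inner cells, keep Cdx2 low through Pou5f1 and keep the Elf5 promoter methylated. Tfap2c, another of the regulators followed here, is not confined to trophoblast and is also active in mouse ES cells and germ cells.

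By ES and fibroblast markers the groups matched their labels, but by sex-linked transcripts the dedifferentiated cells did not match the fibroblasts. All 6 ES markers examined, Pou5f1, Nanog and Sox2 among them, were higher in the dedifferentiated and in the ES cells than in the fibroblasts, and all 10 fibroblast markers, Col1a1 among them, were lower. Of 8 macrophage markers, 4 were lower by at least 1 log2 unit in both groups than in the fibroblasts, and 1, Cd68, was higher. Of all genes 10.1% and 10.4% were called lower there. Lyz2 averaged 8.85 (log2) in fibroblasts, 3.2 in dedifferentiated and 3.34 in ES cells. The part of macrophage RNA in the fibroblast values was not tested. In 1 label field the fibroblasts are also linked to ES cells; grouping followed the titles. Array pairs correlated at 0.9875 to 0.9946 within a group. Xist, the RNA that coats an inactive X chromosome, ranged over 7.24 to 7.39 in the fibroblasts, 3.07 to 3.49 in dedifferentiated cells and 2.78 to 3.39 in ES cells (log2). The Y-linked gene Eif2s3y had 3.45 to 3.69, 7.95 to 8.18 and 7.47 to 7.95 in the same groups, and was above fibroblasts by 4.54 log2 units in dedifferentiated cells (adjusted p = 8.2e-11) and by 4.21 in ES cells. Uty, also Y-linked, was above fibroblasts by 2.63 and 1.90, and Kdm5d, the third Y-linked gene read, was not called in either comparison. By Xist, Eif2s3y and Uty the fibroblast arrays thus read as female and the dedifferentiated and ES arrays as male, which goes against an origin of these dedifferentiated samples from the fibroblast samples measured here. The labels do not say which fibroblasts were dedifferentiated. In what follows, a rise or fall against fibroblasts is therefore a difference between samples of unlike sex, not a change followed in 1 cell population. Sex and cell state cannot be told apart in it, and in bulk RNA fewer cells of a type and less RNA per cell cannot be told apart.

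From fibroblasts to dedifferentiated cells Tfap2c, Plac1 and Hand1 rose, and the other 5 regulators were not called. A gene was called when its Benjamini-Hochberg adjusted p from limma, over all 19938 genes, was under 0.05 and the group means differed by at least 1 log2 unit. By this rule 3 of 8 regulators rose and 0 fell, where 8.79% of all genes rose and 10.1% fell. The median difference was 0.26 log2 units over the regulators and 0.01 over all genes. In ES cells against fibroblasts, Tfap2c alone of the 8 was called, again higher, with 8.85% of all genes called higher and 10.4% lower. The 2 comparisons share the fibroblast arrays. Between dedifferentiated and ES cells 0 of 8 were called by limma, with 1.01% of all genes called higher and 0.547% lower; Plac1 and Hand1 were higher in dedifferentiated cells at an adjusted p under 0.05 but by less than 1 log2 unit. At an unadjusted p under 0.05 that comparison likewise had Plac1 and Hand1. 

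The regulators were also counted by looser rules. At an adjusted p under 0.05 with no limit on size, Tfap2c, Plac1, Hand1 and Ets2 were above fibroblasts both in dedifferentiated cells, where 25% of all genes were higher and 22.4% lower, and in ES cells, where 26.1% were higher and 22.9% lower. The corresponding shares between dedifferentiated and ES cells were 11.2% higher and 10% lower, against 2 of 8 and 0 of 8. Arrays did not overlap for 4 regulators on the higher side in each comparison, where 28.9%, 27.6% and 16.9% of all genes did so, and for 0, 1 and 0 on the lower side, where 25.8%, 24.4% and 15.6% did, in the order dedifferentiated against fibroblast, ES against fibroblast and dedifferentiated against ES. The 95% interval lay within 1 log2 unit of 0 for 5, 5 and 7 of the 8, and for 74.6%, 74.2% and 96.2% of all genes. Cdx2, Elf5, Gata2, Gata3 and Ets2 met this in all 3 comparisons.

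**Figure D1:**
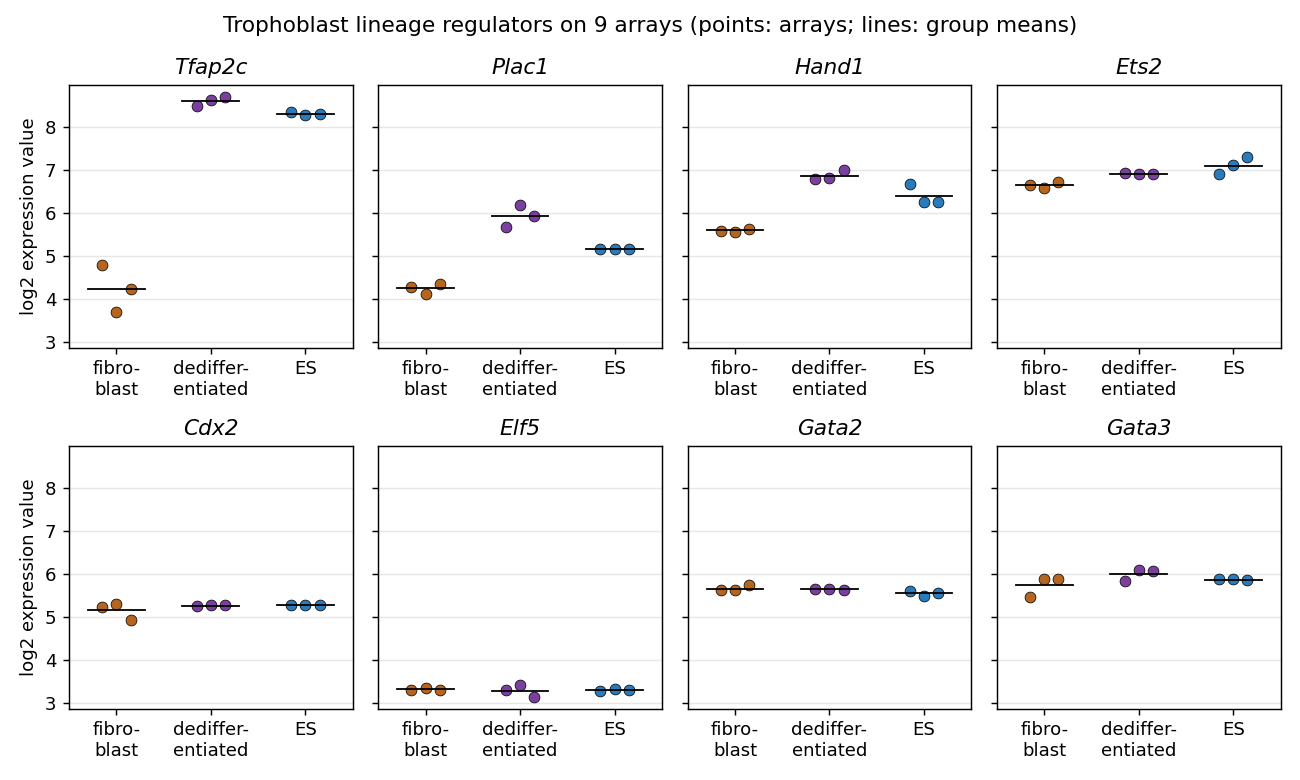
Log2 expression value (y axis, shared) of each of the 8 regulators on the 3 fibroblast, 3 dedifferentiated and 3 ES arrays (x axis); points are arrays and lines are group means. Tfap2c is low in fibroblasts and lies between 8.29 and 8.71 on the other 6 arrays, Plac1 and Hand1 step up from fibroblast to ES to dedifferentiated arrays, and Cdx2, Elf5, Gata2 and Gata3 differ little between groups.

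Tfap2c, an AP-2 transcription factor needed for trophoblast stem cells and for primordial germ cells, changed most of the 8. Its log2 values were 4.79, 3.70 and 4.24 in the fibroblasts, 8.50, 8.63 and 8.71 in the dedifferentiated cells, and 8.35, 8.29 and 8.32 in the ES cells, in the order of replicates 1 to 3. The fibroblast arrays lay far below all others and were also the most spread. The mean rose from 4.24 ± 0.54 in fibroblasts to 8.61 ± 0.11 in dedifferentiated cells (SD, n = 3 each), a difference of 4.37 log2 units or 20.7-fold (95% interval 3.92 to 4.82, adjusted p = 6.9e-09). Only 62 of the 19938 genes had a larger rise in that comparison. ES cells were at 8.32 ± 0.034 and above fibroblasts by 4.08 log2 units (3.62 to 4.53, adjusted p = 1.2e-08).

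The dedifferentiated arrays all lay above the ES arrays for Tfap2c, but the step was small, 0.29 log2 units (95% interval -0.16 to 0.75, adjusted p = 0.41). That interval draws on the spread of the fibroblasts too: with only the dedifferentiated and ES arrays in the fit the adjusted p was 0.035. The genes whose 9 array values, centred on their own mean, were closest to those of Tfap2c were Kit, the stem cell factor receptor, Srgn, a proteoglycan core protein, and Rps6ka6, a ribosomal S6 kinase, with root mean square differences of 0.217, 0.242 and 0.254 log2 units over 9 arrays. No other AP-2 gene was called. Tfap2a, Tfap2b, Tfap2d and Tfap2e were called in 0 of the 3 comparisons; the difference of Tfap2a between dedifferentiated cells and fibroblasts was 0.29 log2 units (0.02 to 0.57) and that of Tfap2d was -0.18 (-0.57 to 0.21).

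Plac1, an X-linked gene for a placental membrane protein that is largely confined to trophoblast in the healthy body, read 4.28, 4.11 and 4.35 in fibroblasts, 5.68, 6.20 and 5.94 in dedifferentiated cells, and 5.17 on each of the 3 ES arrays (log2). The 3 groups do not overlap, and the dedifferentiated arrays are the highest. The mean rose from 4.25 ± 0.12 to 5.94 ± 0.26 between fibroblasts and dedifferentiated cells (SD, n = 3 each), by 1.69 log2 units or 3.23-fold (95% interval 1.43 to 1.96, adjusted p = 2.3e-07). ES cells lay above fibroblasts by 0.92 (0.66 to 1.19, adjusted p = 4.1e-05), just short of the required size. Dedifferentiated cells lay above ES cells by 0.77 log2 units, 1.71-fold (0.51 to 1.03, adjusted p = 0.00092), and only 396 of 19938 genes had a larger positive difference there. The ES value was exactly equal on all 3 arrays, as it was for 402 of 35557 rows (1.13%), so its SD of 0 does not measure precision. Of 742 X-linked genes, 87 (11.7%) rose from fibroblasts to dedifferentiated cells and 92 fell, with a median of -0.03; the part of the difference in sex-linked transcripts in the Plac1 result was not tested.

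RefSeq (GRCm38.p6) gives Plac1 a distal and a proximal transcription start, and both are shown because Plac1 is the regulator in which dedifferentiated cells stood furthest above ES cells. Each line holds the 250 bases before the start, read 5′ to 3′ on the minus strand, at chrX:53240111-53240360 for the distal and chrX:53114406-53114655 for the proximal one.
Plac1 distal: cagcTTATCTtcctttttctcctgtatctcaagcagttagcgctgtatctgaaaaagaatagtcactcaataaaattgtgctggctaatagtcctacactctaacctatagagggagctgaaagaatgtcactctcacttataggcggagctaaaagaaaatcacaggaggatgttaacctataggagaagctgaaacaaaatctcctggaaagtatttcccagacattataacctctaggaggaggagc
Plac1 proximal: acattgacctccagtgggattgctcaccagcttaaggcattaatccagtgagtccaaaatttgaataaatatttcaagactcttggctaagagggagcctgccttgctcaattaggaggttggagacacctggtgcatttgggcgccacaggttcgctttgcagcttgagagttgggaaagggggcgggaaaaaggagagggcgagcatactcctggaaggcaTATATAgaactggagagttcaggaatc
Capitals mark matches to 6 motifs searched on both strands. Pou5f1 reads the octamer ATGCAAAT, TEAD proteins read GGAATG, zinc finger proteins of the Gata2 kind read AGATAA, AP-2 proteins read GCCNNNGGC, Ets proteins read CCGGAA, and the core promoter motif is TATATA. The distal window holds a GATA match whose first base is at position -246 from the start, a motif found in 9.99% of 32851 such windows, and the proximal window a TATA match at position -27, found in 5.25%. CpG dinucleotides number 2 in the distal and 4 in the proximal window, against a median of 6. The array row does not tell the starts apart. Genes with array values closest to those of Plac1 were Ankrd33b, the noncoding RNA Dancr and the metallothionein Mt1 (root mean square differences of 0.101, 0.13 and 0.142 log2 units over 9 arrays).

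Hand1, a basic helix-loop-helix factor that drives the formation of trophoblast giant cells and later acts in the heart, followed the same order of groups as Plac1. Its log2 values were 5.58, 5.57 and 5.63 in fibroblasts, 6.79, 6.82 and 7.00 in dedifferentiated cells, and 6.67, 6.26 and 6.25 in ES cells. Again no 2 groups overlap, though ES replicate 1 came close to the dedifferentiated arrays. Hand1 rose by 1.27 log2 units or 2.42-fold from fibroblasts to dedifferentiated cells (95% interval 1.02 to 1.52, adjusted p = 1.7e-06; 5.60 ± 0.032 to 6.87 ± 0.11, SD, n = 3 each). In ES cells (6.39 ± 0.24) it was above fibroblasts by 0.79 (0.54 to 1.04, adjusted p = 9.3e-05), short of the required size. Dedifferentiated cells exceeded ES cells by 0.48 log2 units (0.23 to 0.73, adjusted p = 0.011), with an adjusted p of 0.057 without dedifferentiated replicate 3 and 0.051 without ES replicate 2.

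Hand2, the paralogue of Hand1 in heart and neural crest, went the opposite way. Its log2 values were 5.80, 5.89 and 6.00 in fibroblasts, 4.65, 4.68 and 4.76 in dedifferentiated cells, and 4.86, 4.66 and 4.51 in ES cells. It fell by 1.20 log2 units in dedifferentiated cells (95% interval -1.42 to -0.99, adjusted p = 7.2e-07) and fell by 1.22 in ES cells (adjusted p = 6.1e-07), both against fibroblasts. Cardiomyocyte markers, which could travel with Hand1 in heart tissue, were called in 0 of 8 cases in each comparison; their summed linear level was 256 to 311 on the fibroblast arrays, 300 to 308 on the dedifferentiated and 252 to 276 on the ES arrays. The genes closest to Hand1 in array values were Gar1, a component of small nucleolar ribonucleoproteins, the fatty acid synthase Fasn and Ppil1, at 0.0825, 0.0903 and 0.117 log2 units over 9 arrays.

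Ets2, an Ets-domain factor that acts downstream of FGF signalling and sustains trophoblast stem cells, was not called, and lay slightly above the fibroblasts in both other groups. Its log2 values were 6.65, 6.58 and 6.72 in fibroblasts, 6.93, 6.91 and 6.91 in dedifferentiated cells, and 6.91, 7.12 and 7.30 in ES cells. Neither group overlaps the fibroblasts, and here the ES cells were the highest on average. ES cells exceeded fibroblasts by 0.46 (95% interval 0.25 to 0.67, adjusted p = 0.0017). The difference between dedifferentiated cells and fibroblasts was 0.27 (0.05 to 0.48, adjusted p = 0.042). That adjusted p was 0.31 after median centring of the arrays, where the difference was 0.14, and from 0.053 to 0.12 when any 1 fibroblast or dedifferentiated array was left out; it was 0.058 without ES replicate 2 and 0.071 over all rows of the table. Dedifferentiated minus ES was -0.20 (-0.41 to 0.02, adjusted p = 0.21; adjusted p = 0.024 without ES replicate 1 and 0.021 with array weights), and the arrays of these 2 groups overlapped.

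No difference was detected for Cdx2 or Elf5. Cdx2, the caudal homeobox factor that specifies trophectoderm, read 5.22, 5.29 and 4.93 in fibroblasts, 5.25, 5.27 and 5.27 in dedifferentiated cells and 5.27 on each ES array (log2). Its difference was 0.11 log2 units between dedifferentiated cells and fibroblasts (95% interval -0.09 to 0.32, adjusted p = 0.38) and -0.01 between dedifferentiated and ES cells (-0.21 to 0.20, adjusted p = 0.98). Elf5, the Ets factor that commits cells to trophoblast, read 3.30, 3.34 and 3.30 in fibroblasts, 3.30, 3.41 and 3.14 in dedifferentiated cells, and 3.27, 3.32 and 3.30 in ES cells. Its differences were -0.03 (-0.21 to 0.15, adjusted p = 0.82) and -0.01 (-0.19 to 0.16, adjusted p = 0.94) in the same 2 comparisons. The 3 groups overlap for both genes. The caudal paralogues Cdx1 and Cdx4 were called in 0 of the 3 comparisons, with differences of 0.02 and -0.02 log2 units between dedifferentiated cells and fibroblasts. The table has no detection call, so a level value does not show whether the transcript is present.

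The promoters of Cdx2 and Elf5 are shown because no difference in these genes was detected between cells that differed widely in Pou5f1, which represses Cdx2 in ES cells. The lines give the 250 bases before the RefSeq start (GRCm38.p6), for Cdx2 at chr5:147307250-147307499 on the minus strand, and for the upstream and downstream starts of Elf5 at chr2:103411848-103412097 and chr2:103423818-103424067 on the plus strand, with motif matches in capitals as above.
Cdx2: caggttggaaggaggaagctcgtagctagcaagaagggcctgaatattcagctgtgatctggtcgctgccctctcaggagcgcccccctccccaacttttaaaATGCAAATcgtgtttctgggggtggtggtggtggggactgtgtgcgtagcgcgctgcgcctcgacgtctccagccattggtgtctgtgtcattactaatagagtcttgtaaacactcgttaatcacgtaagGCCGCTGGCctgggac
Elf5 upstream: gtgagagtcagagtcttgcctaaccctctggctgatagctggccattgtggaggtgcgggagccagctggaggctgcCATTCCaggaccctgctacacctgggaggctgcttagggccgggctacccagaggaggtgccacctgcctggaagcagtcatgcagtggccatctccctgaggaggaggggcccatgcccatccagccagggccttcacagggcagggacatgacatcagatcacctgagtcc
Elf5 downstream: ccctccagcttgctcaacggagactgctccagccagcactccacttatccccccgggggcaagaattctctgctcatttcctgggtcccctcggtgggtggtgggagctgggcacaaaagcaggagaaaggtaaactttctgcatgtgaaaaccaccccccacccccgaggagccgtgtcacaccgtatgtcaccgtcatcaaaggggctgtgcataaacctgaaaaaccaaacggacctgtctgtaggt
The Cdx2 window holds an octamer at position -147 from the start, found in 1.6% of windows, and an AP-2 match at -16, found in 13.7%. The upstream Elf5 window holds a TEAD match at position -173, found in 12.6%, and the downstream one holds none of the 6 motifs. The windows contain 13 CpG dinucleotides for Cdx2, and 2 and 8 for the Elf5 starts. Such matches are descriptions of the letters and say nothing of binding in these cells.

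Gata2 and Gata3, zinc finger factors that activate placental hormone genes and, in the case of Gata3, act beside Cdx2 in trophectoderm, were also not called. Gata2 read 5.63, 5.62 and 5.74 in fibroblasts, 5.66, 5.66 and 5.63 in dedifferentiated cells, and 5.60, 5.49 and 5.56 in ES cells (log2). The ES arrays were the lowest without overlap, but by little: ES minus fibroblast was -0.11 (95% interval -0.27 to 0.04, adjusted p = 0.23). That adjusted p was 0.015 after another quantile normalization, 0.029 after median centring and 0.044 with array weights. Gata3 read 5.47, 5.88 and 5.88 in fibroblasts, 5.84, 6.09 and 6.07 in dedifferentiated cells, and 5.88, 5.88 and 5.86 in ES cells. Its difference between dedifferentiated cells and fibroblasts was 0.26 (0.00 to 0.51, adjusted p = 0.093), with overlapping arrays, and it was 0.12 without fibroblast replicate 1.

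**Figure D2:**
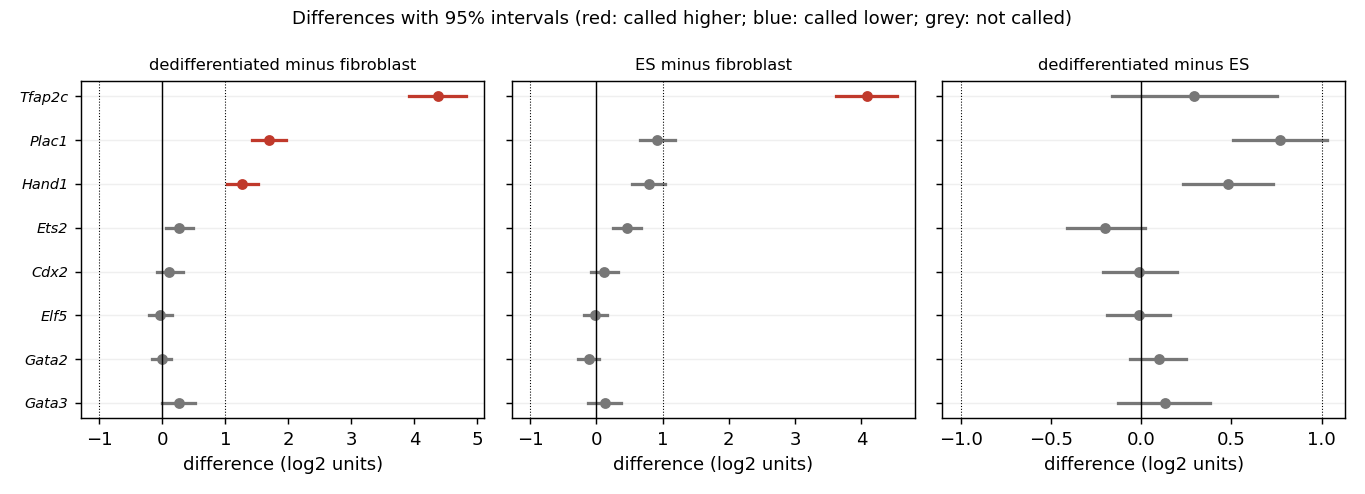
Differences of group means in log2 units (x axis, one panel per comparison) for the 8 regulators (y axis), with 95% intervals from limma; dotted lines mark 1 log2 unit. Tfap2c, Plac1 and Hand1 are called in the first panel, Tfap2c alone in the second, and no gene in the third, where Plac1 at 0.77 and Hand1 at 0.48 lie furthest right.

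Of the 4 other GATA genes, 2 were called higher in dedifferentiated cells against ES cells, where Gata2 and Gata3 were not called. The 2 were Gata4 and Gata6, known from endoderm and heart, while Gata1 and Gata5 were not called in any comparison. The difference between genes was not tested. Gata4 and Gata6 exceeded their ES level in dedifferentiated cells by 1.63 (95% interval 1.34 to 1.92, adjusted p = 1.6e-05) and 1.36 log2 units (1.07 to 1.64, adjusted p = 4.4e-05), and both were already high in fibroblasts, at means of 9.16 and 8.83. Against fibroblasts the dedifferentiated cells differed by 0.45 for Gata4 and 0.57 for Gata6, short of the required size, and in ES cells Gata4 fell by 1.18. Of 9 primitive endoderm markers, including both, 5 were called higher in dedifferentiated cells against ES cells and 0 lower, with Sox17 at 1.79 log2 units. Over all genes 1.01% were called higher and 0.547% lower there. The summed linear level of the 9 markers was 2970 to 3700 on the dedifferentiated and 1240 to 1810 on the ES arrays. On the fibroblast arrays it was 3360 to 3560, within the range of the dedifferentiated arrays. Of 9 endothelial markers 2 were called higher in that comparison, Cdh5 by 1.38 and Esam by 1.07 (0.98, short of a call, without dedifferentiated replicate 3), with a summed level of 544 to 579 on dedifferentiated and 376 to 412 on ES arrays. Of 10 fibroblast markers 2 were called higher, Pdgfra, which is also among the endoderm markers, by 1.37 and Dcn by 1.20, with sums of 964 to 1040 and 562 to 614. In that comparison 7 of the 9 endothelial and 8 of the 10 fibroblast markers were not called. The list medians were 0.14 and 0.27 log2 units, and that of the primitive endoderm markers was 1.36. The part of the 3 lists in the Plac1 and Hand1 differences was not tested.

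Ets genes were read from a chosen list of 9 that leaves out, among others, the Etv genes. Of these 9, 1 rose and 5 fell in dedifferentiated cells against fibroblasts, and as many in ES cells, while between dedifferentiated and ES cells 0 were called by limma. The riser was Elf3, an epithelial Ets factor close to Elf5, by 2.53 log2 units (95% interval 2.30 to 2.77, adjusted p = 2.4e-09) in dedifferentiated and 2.97 in ES cells. Elk3 and Fli1, factors of mesenchyme and endothelium, fell in dedifferentiated cells, at -2.61 and -1.90, and Elk3 and Ets1 fell in ES cells, at -2.62 and -2.17. For this and the lists that follow, 8.79% of all genes rose and 10.1% fell in dedifferentiated cells against fibroblasts. In ES cells 8.85% rose and 10.4% fell. Between dedifferentiated and ES cells 1.01% were called higher and 0.547% lower.

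**Figure D3:**
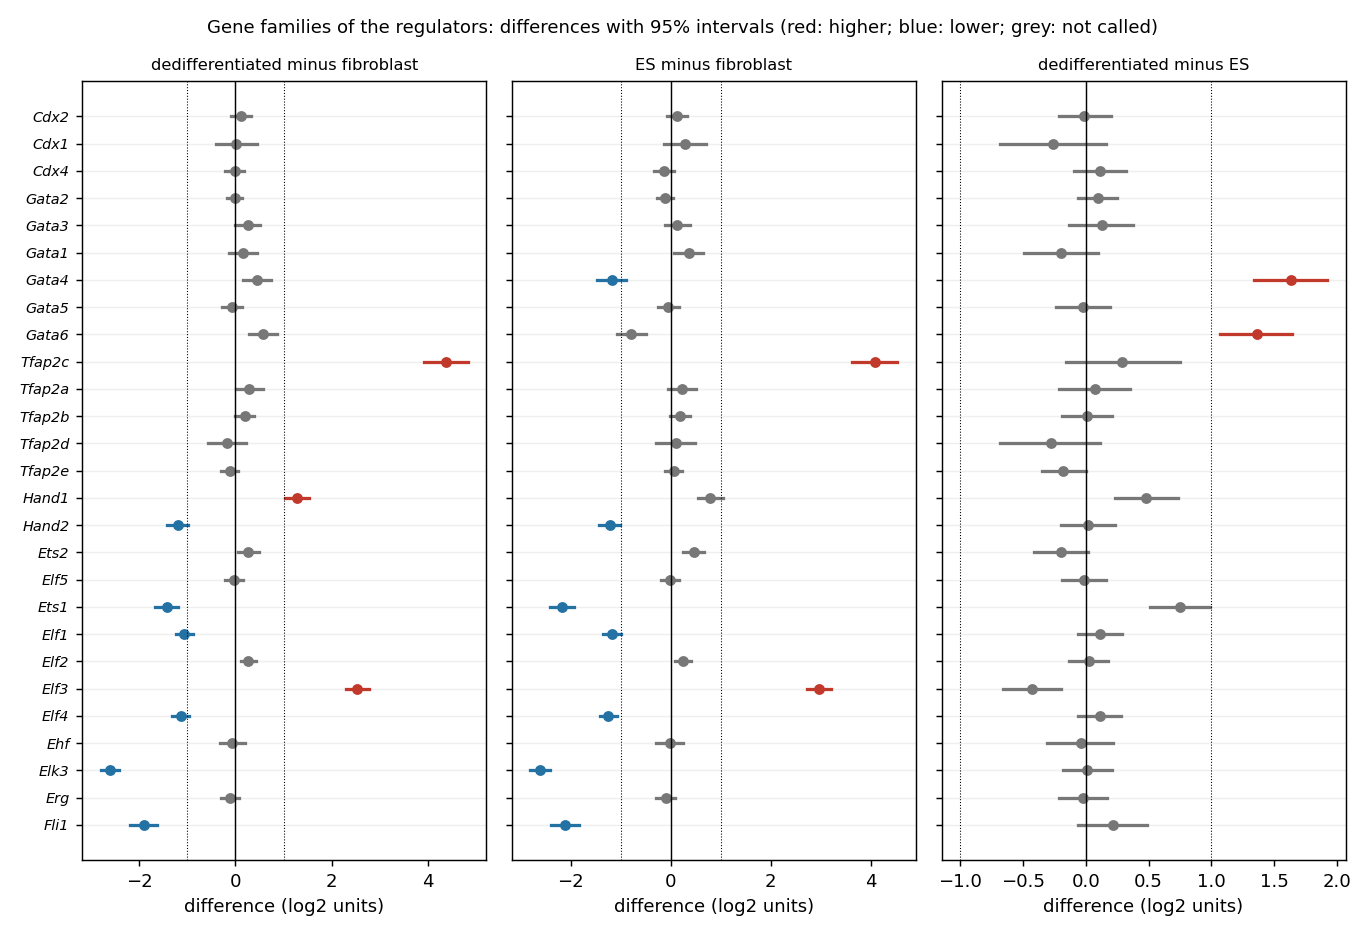
Differences in log2 units (x axis) with 95% intervals for the regulators that belong to the caudal, GATA, AP-2, Hand and Ets families and for the listed paralogues (y axis), one panel per comparison; red marks genes called higher, blue lower, grey not called. Tfap2c is the single AP-2 gene called, Hand1 and Hand2 lie on opposite sides of 0 against fibroblasts, and Gata4 and Gata6 stand apart between dedifferentiated and ES cells.

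Upstream of Cdx2 the TEAD factors moved in opposite directions. Of 14 genes of the Hippo, TEAD and Notch inputs to Cdx2, 2 rose and 7 fell in dedifferentiated cells against fibroblasts (median -1.02 log2 units), and 2 rose and 5 fell in ES cells (median -0.67). Tead4, the TEAD factor that trophectoderm requires, rose by 1.44 (95% interval 1.13 to 1.75, adjusted p = 3.5e-06) and Tead2 by 1.32, while Tead1 and Tead3 fell in the dedifferentiated cells, at -1.24 and -1.23. Lats2, a kinase that keeps Yap1 out of the nucleus, fell by 3.65 (adjusted p = 1.1e-10), and Amotl2, an angiomotin that binds Yap1, fell by 1.40. Yap1 itself was not called, at -0.05 in dedifferentiated and -0.42 in ES cells against fibroblasts. Wwtr1, also among the 14, was called lower in dedifferentiated cells, at -1.1, and not called in ES cells, at -0.76. In ES cells Tead4 rose by 1.61 and Tead2 by 1.40, and Lats2 and its relative Lats1 fell, at -3.42 and -1.41. Between dedifferentiated and ES cells 0 of the 14 were called by limma. Of 11 known repressors of Cdx2 or trophoblast genes in ES cells, such as Pou5f1 and Nanog, 9 rose in dedifferentiated cells and 10 in ES cells against fibroblasts, by 7.82 for Pou5f1 in both and by 6.69 and 6.97 for Nanog.

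Genes that trophoblast stem cells use beside the 8 regulators were mostly higher outside the fibroblasts. Of 13 measured of 14, 10 rose and 2 fell in dedifferentiated cells (median 1.44 log2 units), and 8 rose and 2 fell in ES cells (median 1.61). The leading ones, Sox2 and Esrrb at 6.24 and 5.48 in dedifferentiated cells and Sox2 and Tet1 at 6.29 and 5.76 in ES cells, are also genes of the ES cell state. Id2 and the ligand Bmp4 fell in dedifferentiated cells, at -2.03 and -1.89, and in ES cells, at -1.39 and -1.28. Eomes, the T-box partner of Cdx2 in trophoblast stem cells, rose by 1.57 in dedifferentiated cells (95% interval 1.29 to 1.84, adjusted p = 5.7e-07) and by 1.32 in ES cells; its log2 values were 4.09 to 4.52 in fibroblasts, 5.73 to 5.97 in dedifferentiated and 5.49 to 5.80 in ES cells. Eomes also marks early mesoderm and endoderm. Between dedifferentiated and ES cells 0 of the 13 were called by limma.

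The epithelial genes that trophectoderm shares with ES cells rose in both. Of 15, 13 rose and 0 fell against fibroblasts in each comparison, with medians of 2.98 in dedifferentiated and 3.66 log2 units in ES cells. The adhesion protein Epcam led at 6.23 and 6.40, followed by the cadherin Cdh1 at 5.97 in dedifferentiated cells and the keratin Krt18 at 6.25 in ES cells.

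Genes of the differentiating placenta moved in part. Of 33 measured of 38, a list that includes Hand1, 12 rose and 2 fell in dedifferentiated cells against fibroblasts (median 0.25 log2 units), 8 rose and 2 fell in ES cells (median 0.29), and 2 exceeded their ES level in dedifferentiated cells. The kinase gene Nrk and the imprinted growth restrainer Phlda2 rose by 4.31 and 4.29 in dedifferentiated cells, and the imprinted growth factor Igf2 and Nrk by 3.85 and 3.50 in ES cells. The vasodilator peptide gene Adm and Plac8 fell, at -6.44 and -3.41 in dedifferentiated and -6.58 and -3.97 in ES cells. Phlda2 and the homeobox gene Rhox9 were those 2 genes, by 1.28 (95% interval 1.04 to 1.52, adjusted p = 2.4e-05) and 1.08 (0.86 to 1.31, adjusted p = 4.2e-05).

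The step from fibroblast to ES to dedifferentiated arrays seen for Plac1, Hand1 and Tfap2c was met by genes of several lists, and by no gene of others. With every dedifferentiated array above every ES array and every ES array above every fibroblast array, 3 of the 8 regulators met this order, as did 9 of the 33 placental genes (Hand1 among them, with Ascl2, Peg10, Phlda2, Flt1, Sfmbt2, Rhox6, Rhox9 and Nrk), 2 of 9 primitive endoderm markers (Sox17 and Foxa2), 2 of 11 repressors (Sall4 and Trim28), 2 of 15 epithelial genes (Cdh1 and Aqp3) and 1 of 13 stem trophoblast genes (Satb1); 5.8% of all genes met it. Nf2 among the 14 inputs to Cdx2, Esam among 9 endothelial and Kit among 9 mast cell and blood progenitor markers met it too. So did Ascl2 among 8 placental trophoblast markers and Uty among 4 sex-linked genes. In the caudal, GATA, AP-2, Hand and Ets paralogue lists 0 genes met it. The same 0 held for the ES, fibroblast, T and innate lymphoid, macrophage and cardiomyocyte markers. The order was read from Plac1, Hand1 and Tfap2c, so the 3 of 8 was fixed beforehand and cannot be weighed against the 5.8%. Hand1 in the placental list falls under the same limit. All these names were chosen after their values were seen.

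Most markers of placental trophoblast were not called. Of 12 such markers, 8 were measured; 2, Eomes and Ascl2, rose in dedifferentiated cells, and 1, Eomes, in ES cells, and the median difference between dedifferentiated cells and fibroblasts was 0.01 log2 units. Ascl2, a factor of the spongiotrophoblast that is also read in stem cells of other tissues, rose by 1.44 (95% interval 1.22 to 1.66, adjusted p = 1.8e-07). Tpbpa, the classic spongiotrophoblast marker, differed by -0.09 (-0.25 to 0.08), the labyrinth protease Ctsq by -0.06 (-0.25 to 0.13), the pregnancy glycoprotein Psg17 by -0.05 (-0.24 to 0.13) and the giant cell enzyme Hsd3b6 by -0.07 (-0.42 to 0.28), and the syncytin genes Syna and Synb by 0.25 (-0.12 to 0.63) and 0.08 (-0.32 to 0.47). The summed linear level of the 8 markers was 105 to 115 on fibroblast, 180 to 195 on dedifferentiated and 147 to 169 on ES arrays. Eomes and Ascl2 make up most of the step from fibroblast to dedifferentiated arrays, and the other 6 were not called there. The sum thus does not show a general rise of these markers. Gcm1, Prl3d1, Prl3b1 and Psg21 had no row with a single symbol and were not analysed here.

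**Figure D4:**
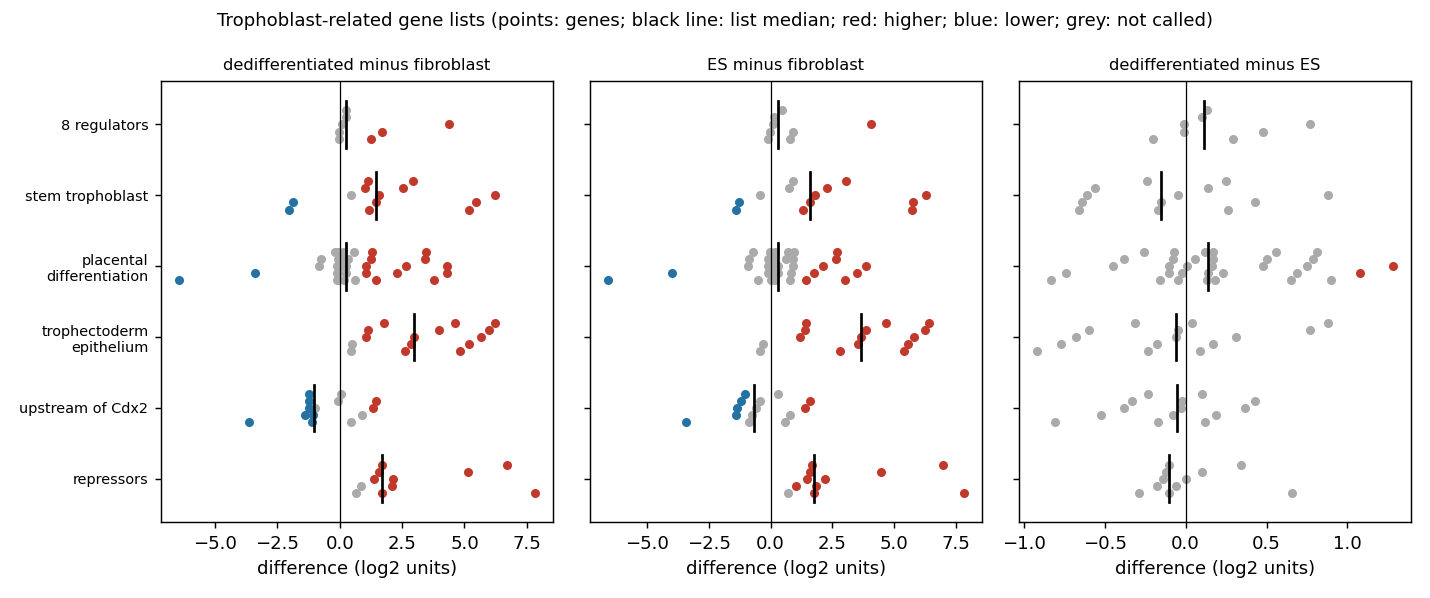
Differences in log2 units (x axis, scaled per panel) of single genes (points) in 6 trophoblast-related lists (y axis), one panel per comparison; black lines are list medians, red marks genes called higher, blue lower and grey not called. Against fibroblasts the epithelial list has its median at 2.98 and 3.66 and the 8 regulators at 0.26 and 0.3, and between dedifferentiated and ES cells 2 placental genes are called.

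Markers of other cells that express Gata2 and Gata3 were also read. Of 9 endothelial markers, which could accompany Gata2, 4 rose and 1 fell in dedifferentiated cells against fibroblasts, led by Pecam1 at 2.44 and Esam at 1.65, and 1 rose and 1 fell in ES cells; their summed level on fibroblast arrays was 276 to 312. Pecam1 is also active in ES cells. Mast cell and blood progenitor markers, which could also accompany Gata2, included 1 of 9 called, Kit. It rose by 4.51 in dedifferentiated cells and 3.86 in ES cells and is also active in ES cells as such. The summed linear level of the 9 markers was 147 to 160 on fibroblast, 571 to 649 on dedifferentiated and 428 to 465 on ES arrays. Kit makes up most of the dedifferentiated and ES sums, and the other 8 were not called against fibroblasts. T and innate lymphoid markers, which would accompany Gata3, had 0 of 7 higher and 2 lower against fibroblasts in each comparison; their summed level was 520 to 569, 178 to 186 and 146 to 160. The 2 were Thy1, which is also a fibroblast marker, and Rora, and they make up most of the fibroblast sum. The other 5, Cd3e, Cd3g, Cd3d, Il7r and Cd2, lay between 3.11 and 4.53 (log2) on the fibroblast arrays and were not called. The part of these lists in the Gata2 and Gata3 values was not tested.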

How the data were processed

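The deposited table holds log2 expression values of 35557 probe sets on 9 arrays; the authors computed them by RMA in Expression Console 1.1, per the submitters' processing notes. Because RMA brings the arrays towards 1 distribution, a global change in transcript level can be hidden, and differences at low values are compressed. The deposited values did not share 1 distribution, with array medians between 4.65 and 4.86. Another quantile normalization moved the median difference of all genes between dedifferentiated cells and fibroblasts from 0.006 to -0.061. Precision is limited by having 3 arrays a group.

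Gene names came from the platform annotation: 21789 rows had 1 symbol, 1621 several and 12147 were not listed. Where a gene had several rows (999 genes) the one with the highest mean was taken, which left 19938 genes. One linear model over the 9 arrays was fitted with limma 3.58.1 in R 4.3.3 (lmFit, eBayes), with p-values adjusted by Benjamini-Hochberg across all genes; intervals are 95% intervals of that fit, which was tested on simulated data. Promoter sequences are RefSeq's, matched by symbol for 6 of the 8 regulators; the motifs were chosen after the sequences were seen. The regulators and gene lists were chosen with earlier results of these data known. Named genes are the 8 regulators and, per list and comparison, the called genes that moved most (2 upward and 2 downward). The 3 genes closest to each called regulator in centred array values were also named, leaving out clone and model names. Tead1, Tead3, Yap1, Wwtr1, paralogues and mature trophoblast and lymphoid markers that were not called were named after their values were seen. Alternatives were other normalizations, row choices, variance models, thresholds, the replicate number as a block, and leaving out each array.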

Additional observations from a re-analysis of the deposited data

How the results depend on the processing

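The 22 alternatives kept the counts of regulators called at 3 higher in dedifferentiated cells and 1 higher in ES cells against fibroblasts and 0 between dedifferentiated and ES cells, except where the threshold on size was changed or only genes above the median level were tested, which left out Plac1, Cdx2 and Elf5 and gave 2 higher in dedifferentiated cells against fibroblasts. With no size limit 4 were higher in that comparison, ES cells exceeded fibroblasts in 4 regulators and dedifferentiated cells exceeded ES cells in 2, and with a limit of 1.5-fold in 3 and 1. Of 519 differences of single regulators under alternatives, 504 kept direction and side of the threshold. The 6 changes of sign were all of differences close to 0: Cdx2 in dedifferentiated cells against fibroblasts at -0.01 after median centring, Elf5 at 0.04 against fibroblasts and 0.06 against ES cells without dedifferentiated replicate 3, Gata2 at 0.02 without fibroblast replicate 3, and, in ES cells against fibroblasts, Elf5 at 0.01 with array weights and Gata3 at -0.01 without fibroblast replicate 1. Over all leave-one-out fits these differences ranged from -0.09 to 0.04 and -0.08 to 0.06 for Elf5, -0.03 to 0.02 for Gata2 and -0.01 to 0.20 for Gata3. Median centring moved the median difference of all genes from 0.006 to -0.114 in dedifferentiated cells and from 0.016 to -0.103 in ES cells against fibroblasts.

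With no size limit, list counts also grew. The 33 placental genes went from 8 to 17 higher and 2 to 6 lower in ES cells against fibroblasts. In dedifferentiated against ES cells they went from 2 to 11 higher and 0 to 4 lower. The 14 inputs to Cdx2 went from 5 to 9 lower in ES cells against fibroblasts. Of all genes, 26.1% were higher and 22.9% lower in ES cells against fibroblasts by that looser rule. In dedifferentiated against ES cells the shares were 11.2% and 10%. Replicate numbers did not pair the samples: same-numbered deviations correlated at -0.204 to 0.25, and 3 of 9 samples correlated best with their own number. With the replicate number as a block, 3, 1 and 0 regulators were called higher and the counts over all genes stayed at 1753 higher and 2012 lower in dedifferentiated cells against fibroblasts. Among the other genes named, Sox17 in ES cells against fibroblasts lost its call without fibroblast replicate 2, at 0.99 log2 units. No detection call is given, so a difference that is small at a low value may be understated.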
